A study of Homo sapiens with 2 samples.

Results

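The genes described here are 38 interferon-induced genes that lie outside the best known antiviral families (the IFIT, OAS, MX and IFITM genes). They were measured in CHME3, an immortalised human line that the labels call microglia. All 38 gene names were in the deposited tables, among 26370 names in all, and 28 had a mean of at least 1 FPKM over the 2 libraries. FPKM counts sequenced fragments relative to transcript length and library depth, and is here totalled across each gene's transcripts. The members were chosen by name after interferon genes had been seen to be higher in the treated library of these same data, so their direction is a description and no support is drawn from it. The series holds 1 untreated library and 1 from a culture exposed at 5 µg/ml to muscarinic receptor antagonists, drugs that block acetylcholine receptors coupled to G proteins. The labels name neither the compound nor the time of exposure, and put both cultures at passages 4 to 6. With 1 library a group no difference has a replicate check, and no p-value is given. In RNA of a whole culture, more cells expressing a gene and more RNA per cell cannot be told apart.

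The untreated library had about 6805866 fragments and the treated one 7301216, recovered from the bounds that the authors gave with each value. The data go against the label of microglia: of 20 markers of microglia and macrophages 17 were under 1 FPKM and 11 were listed at 0 in both libraries, including AIF1, CX3CR1, TMEM119 and PTPRC, which were named after their values were seen. All 12 lymphoid and dendritic and all 10 neural and glial markers were under 1 FPKM. Of 15 fibroblast and matrix markers 11 were over it, with summed levels of 6278 FPKM untreated and 6791 treated. Much of these sums came from FN1, at 2725 untreated and 3021 treated, and VIM, at 1967 and 2025. The 4 under it were COL3A1, DCN and LUM, listed at 0 in both libraries, and COL1A2, at 0.196 and 0.157. These genes were also named after their values were seen. Of the ribosomal RNA records, RNA18S5 was at 363 and 759 FPKM and RNA5-8S5 at 366 and 725, while RNA28S5 was at 456 and 504 and RNA45S5 at 10.5 and 10.6. The part of these differences in the results was not tested. With ribosomal RNA records left out and both libraries rescaled to the same sum, values were no longer in FPKM. Of 30 members with a rescaled mean of at least 1, 26 were higher. The median log2 ratio of the 30 was 0.27. Of all genes over the same floor in that setting 51.2% were higher, with a median of 0.01.

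Interferons are secreted proteins that bind receptors on the cell surface and activate the kinases bound to them and, through these, transcription factors. In promoters these factors bind the interferon-stimulated response element or the gamma-activated site. The genes so induced act at many steps of infection: they sense foreign DNA or RNA, modify proteins with ADP-ribose or ubiquitin, deplete nucleotides, and organise nuclear bodies. Many cells keep some of these genes on at a low level without infection.

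Because the members share a description as interferon-induced, their promoters were searched for the cores of both elements. The window was 250 bases before to 50 after each RefSeq gene start on GRCh38.p14, the same assembly as the hg38 coordinates of the files. The sequences below belong to the 6 members that were at least 25% higher in the treated library and held the response element core, and to PARP9, whose window overlaps that of DTX3L by 137 bases. Each runs 5′ to 3′ on the gene's strand from 250 bases before the start to 20 after it. Capitals mark the response element core, which is GAAA, any pair of bases and GAAA again, on either strand.
NMI, chr2:151289649-151289918, minus strand: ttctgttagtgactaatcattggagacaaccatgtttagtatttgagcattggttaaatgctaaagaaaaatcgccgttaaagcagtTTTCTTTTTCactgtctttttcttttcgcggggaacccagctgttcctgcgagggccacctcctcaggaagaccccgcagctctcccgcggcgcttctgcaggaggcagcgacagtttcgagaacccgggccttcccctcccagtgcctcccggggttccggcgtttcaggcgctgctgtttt
PARP12, chr7:140062932-140063201, minus strand: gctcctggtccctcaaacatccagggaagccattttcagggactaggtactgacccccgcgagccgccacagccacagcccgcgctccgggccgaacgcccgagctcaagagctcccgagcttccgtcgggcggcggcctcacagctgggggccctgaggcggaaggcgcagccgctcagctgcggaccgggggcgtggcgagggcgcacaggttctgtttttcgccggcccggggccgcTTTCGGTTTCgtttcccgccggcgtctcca
DTX3L, chr3:122564088-122564357, plus strand: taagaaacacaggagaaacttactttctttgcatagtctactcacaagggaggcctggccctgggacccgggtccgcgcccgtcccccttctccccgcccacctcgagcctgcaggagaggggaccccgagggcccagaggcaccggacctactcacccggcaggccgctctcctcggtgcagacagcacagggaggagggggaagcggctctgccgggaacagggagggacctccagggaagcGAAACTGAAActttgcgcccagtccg
EPSTI1, chr13:42992222-42992491, minus strand: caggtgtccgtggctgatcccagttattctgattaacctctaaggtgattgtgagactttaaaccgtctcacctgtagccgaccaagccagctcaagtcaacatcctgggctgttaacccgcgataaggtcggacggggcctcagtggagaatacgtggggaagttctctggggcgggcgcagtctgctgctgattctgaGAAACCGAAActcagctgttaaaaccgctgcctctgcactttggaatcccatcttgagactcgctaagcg
GBP1, chr1:89065189-89065458, minus strand: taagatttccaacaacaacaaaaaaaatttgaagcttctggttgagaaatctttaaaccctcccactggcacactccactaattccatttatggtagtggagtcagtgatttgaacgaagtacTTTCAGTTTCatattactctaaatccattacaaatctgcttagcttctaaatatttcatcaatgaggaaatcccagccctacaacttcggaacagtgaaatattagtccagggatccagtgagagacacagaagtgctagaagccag
IFI44, chr1:78649539-78649808, plus strand: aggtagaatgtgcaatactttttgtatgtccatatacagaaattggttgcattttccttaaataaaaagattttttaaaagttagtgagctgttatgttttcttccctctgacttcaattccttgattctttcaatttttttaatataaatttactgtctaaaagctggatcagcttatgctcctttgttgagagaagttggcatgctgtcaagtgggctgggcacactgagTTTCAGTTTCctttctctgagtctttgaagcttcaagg
PARP9, chr3:122564281-122564550, minus strand: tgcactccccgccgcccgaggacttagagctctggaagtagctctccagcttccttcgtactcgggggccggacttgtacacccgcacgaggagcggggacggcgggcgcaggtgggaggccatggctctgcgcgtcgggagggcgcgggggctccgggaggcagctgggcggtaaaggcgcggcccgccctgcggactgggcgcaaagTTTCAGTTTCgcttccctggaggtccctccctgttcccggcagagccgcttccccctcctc

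The same 10 bases, 122564332 to 122564341 on chromosome 3, are the match for both DTX3L and PARP9. These neighbours are transcribed in opposite directions from starts that lie close together, and their products form one ubiquitin ligase complex. Counted from the start of each gene, with bases before it negative, the match begins at -6 in DTX3L, -41 in PARP9, -10 in PARP12, -18 in IFI44, -50 in EPSTI1, -127 in GBP1 and -163 in NMI. These starts are those of RefSeq today. They lie 770 bases from the nearest transcript start in the deposited files for PARP12, 248 for NMI, 152 for GBP1, 30 for EPSTI1, 3 for IFI44 and 0 for DTX3L and PARP9. For PARP12, NMI and GBP1 the deposited start is the more upstream one, and the match lies downstream of it.

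The promoter table held 30 of the 38 members, with 42 windows. The response element core occurred in 18 of these windows (42.86%), against 3.57% of all 35116 windows of the same length. Counted by gene, 16 of 30 members (53.33%) and 1195 of all 27305 genes of the table (4.38%) held it. Of genes of at least 1 FPKM, 12 of 23 members (52.17%) and 333 of 8827 genes (3.77%) did, and so did 4 of the 7 members under that floor (57.14%). The core of the gamma-activated site, TTC, any 3 bases and GAA, was in 10 of the 42 windows (23.81%), against 7.66% of all windows. In EPSTI1 the matches of both cores overlap. The 12 members over 1 FPKM with the response element core had a median log2 ratio of treated over untreated of 0.31 (range 0.04 to 0.75), and all 12 were higher. The 11 without it in their windows had a median of 0.18 (range -0.16 to 0.48), and 9 were higher. Over the table's genes of at least 1 FPKM the medians were 0.02 for 333 genes with the core and 0.00 for 8494 without it. Of these, 189 of the 333 and 4301 of the 8494 were higher. The members were chosen after interferon genes were seen to be higher in these data, so nothing is read from this split. IFI16, IFI35 and HELZ2 were at least 25% higher with no match of this core in their windows. A match describes letters in a window, not bound protein.

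**Figure D1:**
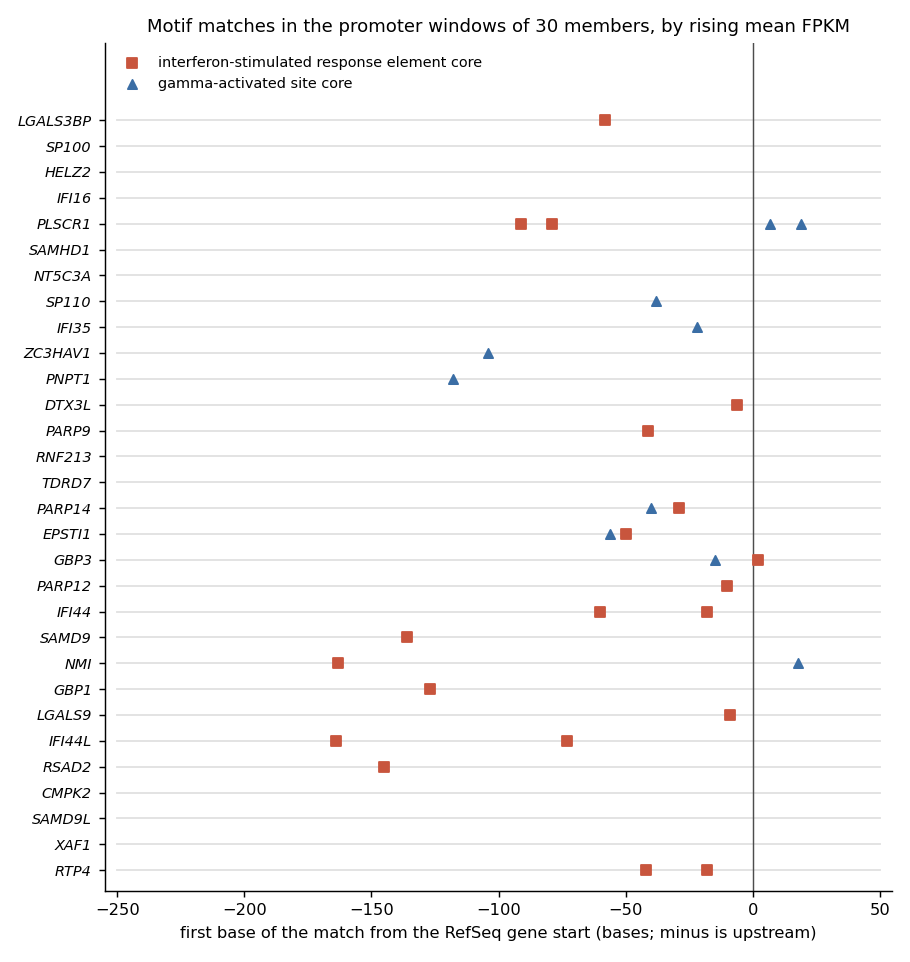
Position of each motif match in the promoter windows of 30 members. The x axis is the first base of the match from the RefSeq gene start, squares are the response element core and triangles the core of the gamma-activated site. Genes with several RefSeq starts show the same match at more than 1 distance, as for IFI44 at -60 and -18. Every square lies upstream of the RefSeq start except that of GBP3, at 2, while starts in the deposited files can differ.

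The members differed widely in level. LGALS3BP was the highest, at 149 FPKM untreated and 178 treated, and RTP4 was listed at 0 in both. Between these, PML, SP100 and APOL2 were above 20 FPKM in both libraries, while 10 members had a mean below 1. The members just above that floor were GBP1 and APOL1, at means of 1.38 and 1.66, and those just below were LGALS9 and IFI44L, at 0.894 and 0.587. In each pair of values the untreated library comes first.

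**Figure D2:**
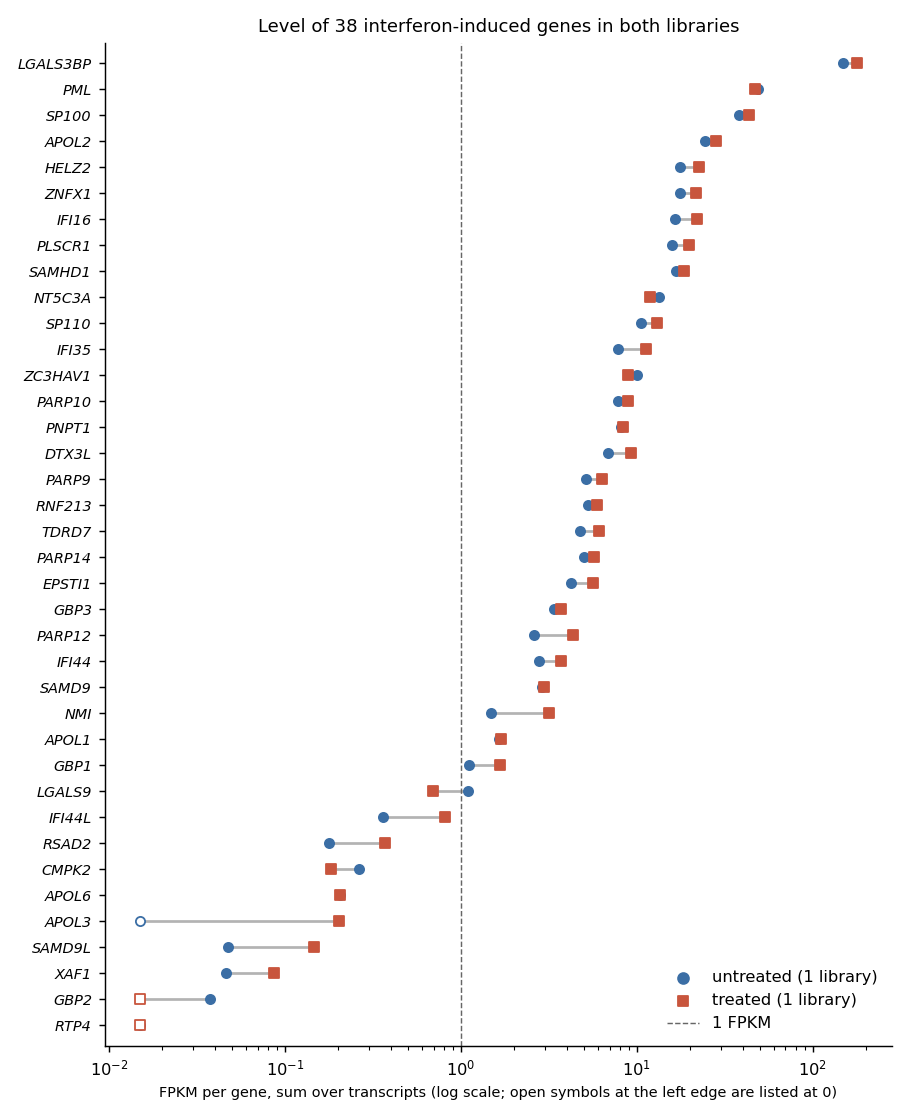
FPKM of the 38 members in the untreated (circles) and treated (squares) library on a log axis, ordered by their mean, 1 library each. Open symbols are genes listed at 0 (at RTP4 the square covers the circle), the dashed line is 1 FPKM, and squares lie to the right of circles for most members above it, with PML, NT5C3A and ZC3HAV1 the other way round.

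Most members over 1 FPKM had somewhat more RNA in the treated library. Of the 28, 25 were higher and 3 lower, beside 50.7% higher among all 11668 genes over the same floor. The measure is log2 of (treated FPKM + 1) over (untreated FPKM + 1), and it shrinks the ratio of low genes. Its median over the 28 members was 0.26, with values from -0.16 to 0.75, beside a median of 0.00 and quartiles of -0.10 and 0.11 for all genes. By this measure 9 members were at least 25% higher, against 5.49% of all genes, and 1 at least 1.5-fold, against 1.20%. None of the 28 was at least 20% lower, against 4.29% of all genes. Since this contrast also chose the members, nothing is read from these shares. The count at least 25% higher was 3 with a pseudocount of 5, beside 1.23% of all genes. With a floor of 5 FPKM it was 4 of 20 members, beside 2.91% of all genes.

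A 95% interval for counting error was computed for each FPKM ratio from the fragments behind it. It lay above 1 in 14 of the 28 members, beside 6.41% of all genes with fragments in both libraries, and below 1 in 0 members, beside 6.07%. These intervals compare 2 libraries and leave out variation between cultures. Widths followed depth: LGALS3BP, with 4811 fragments over both libraries, had a ratio of 1.19 (1.13 to 1.27), and APOL1, with 63, a ratio of 1.03 (0.607 to 1.74).

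**Figure D3:**
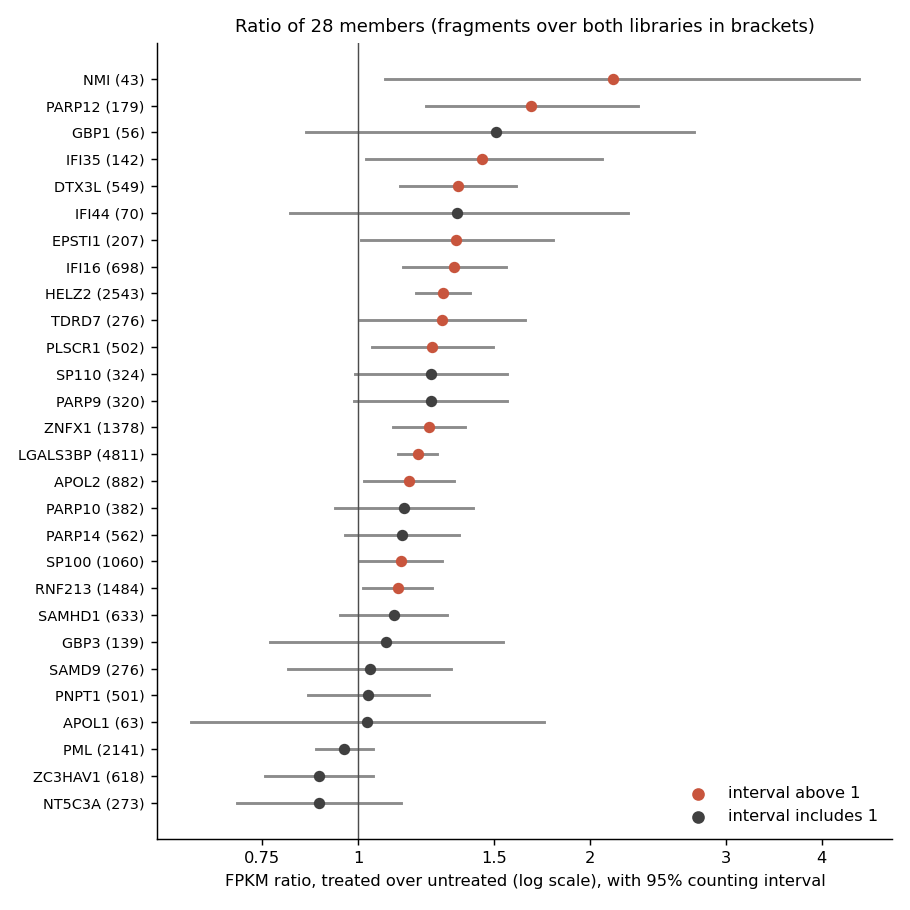
FPKM ratio of treated over untreated for 28 members on a log axis, with 95% counting intervals and the fragments of both libraries in brackets. Coloured points have intervals above 1 (14 members), NMI has the highest ratio at 2.14 with a wide interval, and PML, ZC3HAV1 and NT5C3A lie below 1 with intervals that include it.

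**Figure D4:**
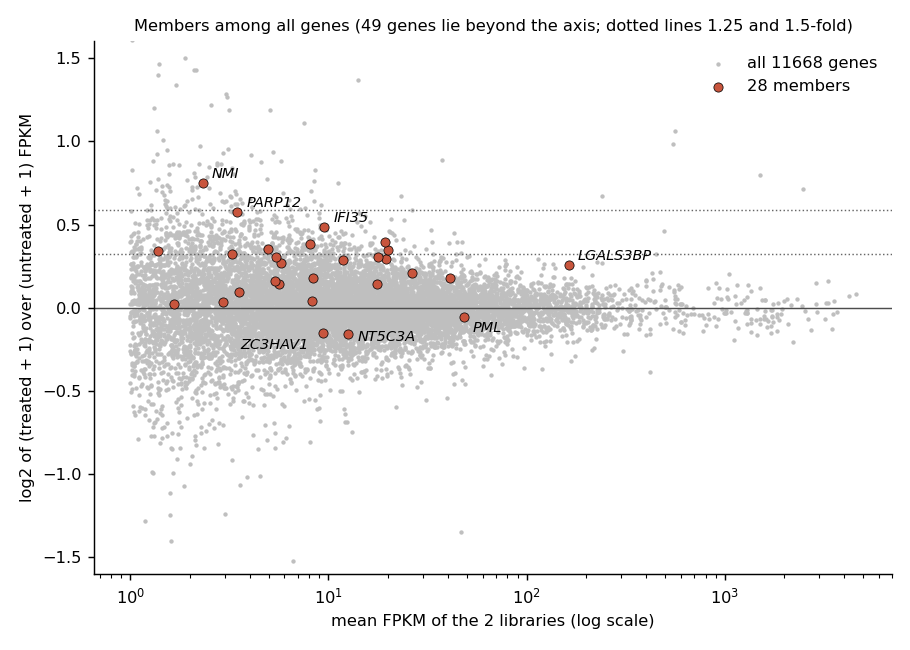
Mean FPKM (log axis) against the log2 ratio with a pseudocount of 1 for all 11668 genes (grey) and the 28 members (coloured). Of all genes 49 lie beyond the axis, and the members sit mostly above 0 at every level, from NMI at 0.75 to NT5C3A at -0.16.

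NMI and IFI35, whose proteins bind each other, were among the members with the largest differences. NMI, an adaptor-like protein of cytokine responses, was at 1.48 and 3.16 FPKM on 13 and 30 fragments. The treated value was the higher, with an FPKM ratio of 2.14 (1.08 to 4.47), the widest interval of the members with an interval above 1. IFI35 was at 7.77 and 11.3 FPKM on 55 and 87 fragments, with a ratio of 1.45 (1.02 to 2.07). NMI ranked 77 and IFI35 225 among the 11668 genes by log2 ratio.

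The 4 PARP members, which are ADP-ribosyltransferases, and DTX3L all had higher values in the treated library, with intervals above 1 for PARP12 and DTX3L. PARP12, a mono-ADP-ribosyltransferase with zinc fingers, was at 2.60 and 4.35 FPKM, with a ratio of 1.68 (1.22 to 2.31). DTX3L, a ubiquitin ligase, was at 6.85 and 9.23 FPKM, with a ratio of 1.35 (1.13 to 1.604). Its partner PARP9 was at 5.12 and 6.36, a ratio of 1.24 (0.989 to 1.56) that does not clear counting error. The most abundant PARP9 transcript alone was lower in the treated library, with a log2 ratio of -0.14, so this gene's direction rests on its other transcripts. PARP9 and DTX3L overlap by 339 bases on opposite strands, and since the labels do not say whether strand was kept, reads there cannot be assigned with certainty. PARP14, a larger family member with macrodomains, was at 5.02 and 5.72 FPKM, and PARP10, also a mono-ADP-ribosyltransferase, at 7.79 and 8.94. Both of these ratios, 1.14 (0.962 to 1.35) and 1.15 (0.933 to 1.41), have intervals that include 1.

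Genes of DNA sensing and nuclear bodies differed among themselves. IFI16, a sensor of DNA, was at 16.6 and 22.1 FPKM, with a ratio of 1.33 (1.14 to 1.55). SP100, a scaffold of nuclear bodies, was at 38.3 and 43.5 FPKM, with a ratio of 1.14 (1.01 to 1.29), and its relative SP110 at 10.5 and 13.1, a ratio of 1.24 (0.992 to 1.56). SAMHD1, which hydrolyses deoxynucleotides, was at 16.6 and 18.5 FPKM, with a ratio of 1.11 (0.948 to 1.30), and its span overlaps that of TLDC2. PML, which organises the same nuclear bodies as SP100, was at 49.1 and 47.1 FPKM. Its ratio of 0.960 (0.881 to 1.05), from 2141 fragments, places it close to equality while SP100 was slightly higher.

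The total for PML hid differences between its transcripts. Per transcript, NM_033240 was at 15.2 FPKM untreated and 7.08 treated, or 30.9% and 15.0% of the gene's total. NM_033239 was at 6.67 and 13.4 FPKM, or 13.6% and 28.4%. NM_033249 was at 7.19 and 2.15 FPKM. In all 3 the authors' lower and upper bounds do not overlap between the libraries, and the directions are mixed. The first 2 share their ends, 73994673 and 74036394 on chromosome 15, and have 7 and 8 exons. NM_033250, at 12.1 and 13.8 FPKM, was the most abundant in the treated library only. Such values come from dividing shared reads among 9 overlapping transcripts, and the bounds cover 1 library each.

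**Figure D5:**
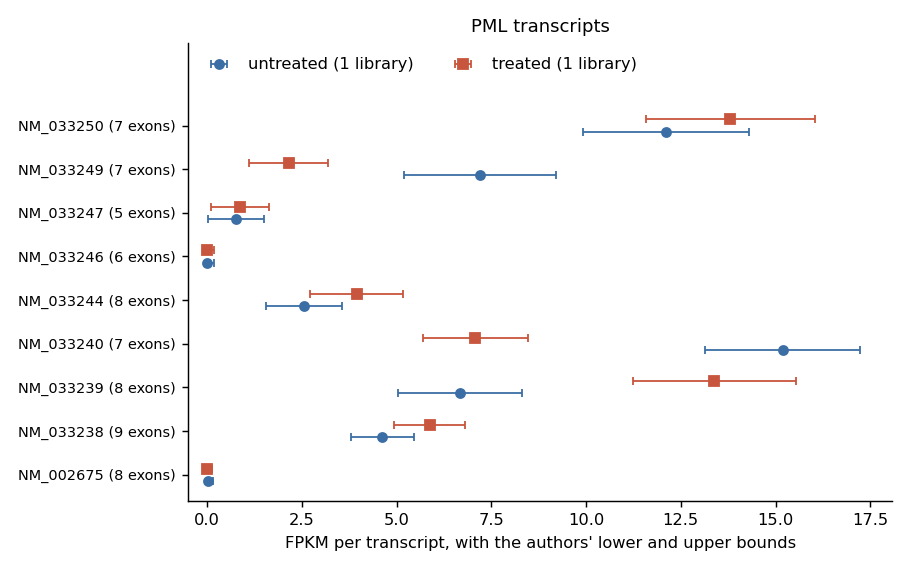
FPKM of the 9 PML transcripts in the untreated (circles) and treated (squares) library, with bars for the authors' lower and upper bounds. NM_033240 and NM_033249 are lower and NM_033239 is higher in the treated library with bounds that do not overlap, while the gene's total is 49.1 and 47.1 FPKM.

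PML was alone among the 15 members over 1 FPKM with several transcripts in having a different leading transcript in each library. Of 29 such transcripts over 1 FPKM, 9 had bounds that do not overlap, in 5 genes, beside 17.6% of 11897 transcripts of all genes with several. Of the 9, 6 were higher and 3 lower. Apart from PML these were NM_022750 of PARP12, NM_005531 of IFI16, both listed transcripts of HELZ2 and both of APOL2. In APOL2, NM_030882 was at 21.2 and 28.3 FPKM, while NM_145637, which has 1 more exon, was at 3.14 FPKM in the untreated library and under 0.001 in the treated.

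Proteins that bind RNA or resemble helicases were mostly higher. HELZ2, a helicase-like coactivator, was at 17.5 and 22.6 FPKM, with a ratio of 1.29 (1.19 to 1.40) from 2543 fragments. ZNFX1, a zinc finger helicase that senses viral RNA, was at 17.6 and 21.7 FPKM, with a ratio of 1.24 (1.11 to 1.38). The antisense gene ZFAS1 overlaps ZNFX1 and was far more abundant at 261 and 270 FPKM, so reads of the pair may be mixed where strand was not kept. TDRD7, a tudor domain protein of RNA granules, was at 4.75 and 6.11 FPKM, with a ratio of 1.29 (1.01 to 1.65). RNF213, a giant ubiquitin ligase, was at 5.30 and 5.96, a ratio of 1.126 (1.015 to 1.249), and PNPT1, a mitochondrial RNA-degrading enzyme, at 8.11 and 8.36, a ratio of 1.03 (0.862 to 1.23). ZC3HAV1, the zinc finger antiviral protein, went the other way at 9.97 and 8.88 FPKM, with a ratio of 0.891 (0.758 to 1.05). Its interval includes 1.

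The remaining enzymes of nucleotide metabolism were under 1 FPKM or, for NT5C3A, lower in the treated library within counting error. NT5C3A, a pyrimidine nucleotidase, was at 13.4 and 11.9 FPKM, with a ratio of 0.890 (0.696 to 1.14), and its leading transcript alone had a log2 ratio of -0.47. Its other transcript over 1 FPKM, NM_001002009, was higher in the treated library, at 2.36 and 4.21 FPKM. The authors' bounds overlap between the libraries for both transcripts. RSAD2, known as viperin, was at 0.176 and 0.370 FPKM from 4 and 9 fragments. Its neighbour CMPK2, a mitochondrial nucleotide kinase 11029 bases away, was at 0.262 and 0.183 from 4 and 3 fragments. Both are strongly induced in many cells given interferon, and both stayed under 1 FPKM here.

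The families in gene clusters had 1 or more members near silence. Among the guanylate-binding proteins, which are large GTPases of chromosome 1, GBP3 was at 3.39 and 3.68 FPKM and GBP1 at 1.10 and 1.67. The ratio of GBP1, 1.51 (0.856 to 2.73), rests on 21 and 35 fragments and its interval includes 1, as does that of GBP3, 1.09 (0.768 to 1.54). GBP2 had 1 fragment in the untreated library and none in the treated, where 3 fragments would correspond to 0.104 FPKM. Among the apolipoproteins L of chromosome 22, APOL2 was at 24.3 and 28.3 FPKM, with a ratio of 1.16 (1.02 to 1.33), far above APOL1, the trypanosome lytic factor, at 1.64 and 1.69. APOL6 was at 0.206 in both libraries, and APOL3 was listed at 0 in the untreated library, where 3 fragments would correspond to 0.128 FPKM, and at 0.202 in the treated. Reads of such related genes can be divided wrongly between them.

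Other neighbouring pairs also differed in level. IFI44 was at 2.77 and 3.72 FPKM, with a ratio of 1.34 (0.816 to 2.24), and IFI44L, which lies 3646 bases away on the same strand, at 0.359 and 0.814 from 14 and 33 fragments. Both values of the pair were higher in the treated library, though IFI44L is under the floor and the interval of IFI44 includes 1. SAMD9, an antiviral protein that blocks translation, was at 2.88 and 2.98 FPKM, with a ratio of 1.04 (0.812 to 1.32). Its paralogue SAMD9L was at 0.0473 and 0.145 FPKM from 2 and 7 fragments.

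The remaining members act at membranes, outside the cell or in cell death. LGALS3BP, a secreted glycoprotein that binds galectins, was at 149 and 178 FPKM as given above. Galectin 9, LGALS9, was at 1.10 and 0.692 from 11 and 8 fragments. PLSCR1, a phospholipid scramblase, was at 15.9 and 19.8 FPKM, with a ratio of 1.249 (1.042 to 1.498). EPSTI1, first described in the interplay of epithelium and stroma, was at 4.21 and 5.66, a ratio of 1.34 (1.01 to 1.79). XAF1, which counters an inhibitor of apoptosis, was at 0.0460 and 0.0858 FPKM from 1 and 2 fragments. RTP4, a chaperone of membrane receptors, was at 0 untreated and at 0 treated, and a count of 0 allows up to 3 fragments, or 0.534 and 0.497 FPKM. With no floor, 15 of 37 members with a value above 0 had a counting interval above 1, beside 4.58% of 17070 genes. With the floor it was 14 of 28. Of the 10 under the floor, those other than IFI44L and APOL6 had under 20 fragments over both libraries.

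Other genes of the pathway were counted in the same way, from lists chosen with earlier results of these data known. Of 37 interferon-induced genes outside the 38 members, 33 were over 1 FPKM, 31 of them higher and 16 at least 25% higher, with a median log2 ratio of 0.29. The shares of all genes, as above, were 50.7% and 5.49%, and these genes too were known beforehand to be higher in these data. MX2 and MX1, both antiviral GTPases, had the largest differences of that list, with log2 ratios of 0.84 and 0.67. The 2 lower genes, named after their values were seen, were IFIT5 at 4.95 and 4.12 FPKM and TRIM34 at 1.30 and 0.742. Receptors, kinases, factors and sensors of the pathway did not share this pattern of values: of 22 over 1 FPKM 10 were higher and 12 lower, with a median of -0.03 and 0 at least 25% higher. In that list MB21D1, the DNA sensor cGAS, was at 12.5 and 9.96 FPKM. All 22 interferon genes were under 1 FPKM, and 19 were listed at 0 in both libraries. Of 6 chemokines 4 were listed at 0 in both, and CCL5, a chemokine for T cells, was at 1.68 and 1.33 FPKM.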

How the data were processed

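RNA of 1 untreated and 1 treated culture was made into TruSeq libraries, per the labels' protocols. The authors deposited, per transcript, an FPKM with lower and upper bounds and a relative score, which was not used. Cufflinks is named as the source per the source column on each line of the files, and TopHat, Cuffdiff and the build hg38 per the submitters' processing notes, with no versions. Strand handling is not given in the sources used here. Samples were grouped by the treatment characteristic in their labels, which, like their titles, differs between them, while the protocol text on dose is the same for both.

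FPKM was summed over a gene's transcripts, a pseudocount of 1 FPKM added, and log2 ratios taken for genes with a mean of at least 1. Fragments were recovered as the square of 2 × FPKM over the distance to the upper bound. Of single-transcript values of at least 3 fragments, 21.1% and 21.3% were whole within 0.01, so they are estimates. A line of fragments per FPKM on transcript length gave each library's depth, and served for genes with several transcripts. Intervals (95%) come from the exact binomial distribution of rounded fragments given their sum, and cover counting error only. Fragment recovery and interval coverage were run on simulated whole counts of single-transcript genes, with upper bounds built by the same formula. This checks the code only. It cannot show how well recovery holds in these data or for genes with several transcripts. Promoters came from a RefSeq table of GRCh38.p14. Python 3.11.15, pandas 2.3.3 and scipy 1.17.1 were used.

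The members and lists were chosen with earlier results of these data known. Every member is named. From other lists the 2 genes with the largest absolute log2 ratio are named, and other genes are marked as named after their values were seen. Some of these are not reported here. Alternatives covered the pseudocount, floor, transcript choice, 3 scalings, a minimum of 20 fragments and overlapping genes.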

Additional observations from a re-analysis of the deposited data

How the results depend on the processing

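No paired analysis was possible because each group has 1 library, and no replicate could be left out. Under 10 alternative settings the number of higher members stayed within 1.5 times the reported count. So did the number with a counting interval above 1, where it was computed. The median log2 ratio, 0.26 as reported, ran from 0.17 with a pseudocount of 5 to 0.28 with a pseudocount of 0.1. The count at least 25% higher, 9 as reported, was 3 with a pseudocount of 5, where 1.23% of all genes were. It was 4 of 20 members with a floor of 5 FPKM, beside 2.91% of all genes. The count at least 1.5-fold higher, 1 as reported, was 2 with a pseudocount of 0.1, 0 with a pseudocount of 5, 0 with a floor of 5 FPKM and 3 when both libraries were scaled without ribosomal RNA. The count at least 20% lower, 0 as reported, was 1 with the most abundant transcript alone, beside 8.06% of all genes. When scaled without ribosomal RNA it was 1, beside 6.55%. The causes of these shifts were not tested. With the most abundant transcript alone, PML (0.18), PARP9 (-0.14) and SAMD9 (-0.13) took the other sign of the log2 ratio. No other member did so under these settings. The 3 scalings shifted the treated library against the untreated by at most 0.0125 on the log2 scale. Scaling without ribosomal RNA also changed the level of both against the pseudocount and floor, so that 30 members passed the floor and the log2 ratio of NMI was 0.90 in place of 0.75. Depth limits the members under 1 FPKM, of which APOL6 and IFI44L alone had over 20 fragments.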

Other observations

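Relatives of the members were counted in the same way. Of 32 such genes, from the guanylate-binding, apolipoprotein L, PARP, SP100, galectin and neighbouring families, 16 were over 1 FPKM, 11 of these were higher and 5 lower, and 2 were at least 25% higher, with a median log2 ratio of 0.05. Of all genes over the floor 50.7% were higher and 5.49% at least 25% higher. DTX3, a ubiquitin ligase related to DTX3L, was at 9.82 and 12.99 FPKM with a ratio of 1.32 (1.05 to 1.66), and PARP3, which acts in DNA repair, at 5.78 and 7.53 with a ratio of 1.30 (0.982 to 1.74). PARP2, a DNA repair enzyme and the list's only gene with an interval below 1, was at 45.3 and 39.5 FPKM with a ratio of 0.873 (0.769 to 0.989). PARP1, the main DNA damage sensor of its family, was at 117 and 119 FPKM with a ratio of 1.02 (0.974 to 1.08). Both were named after their values were seen. The difference between relatives and members was not tested.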
